A study of Danio rerio with 18 samples.

Results

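The genes described here belong to the bile acid axis, the circuit by which liver and intestine sense, export and recover bile acids. They are the bile acid receptor gene nr1h4, the paralogs nr0b2a and nr0b2b, the export pump gene abcb11a, fabp6 for a carrier of bile acids in enterocytes, and the hormone gene fgf19. The 6 genes were picked by symbol, with 1 row per symbol (the transcript with the highest average), from 21227 symbols in the authors' deposited table, and all 6 were found there. They were chosen with their fold changes known, so the values below are a description.

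The larvae were wild-type zebrafish of the AB strain at 6.5 days after fertilization. Each of the 18 samples was a pool of intestine, liver and pancreas dissected from 10 larvae, and the samples formed 6 groups of 3. In the high-fat cohort, larvae were unfed, or were taken 1 h or 4 h after a meal of 5% egg yolk emulsion. In the low-fat cohort, larvae were unfed, or were taken 1 h or 4 h after a meal of 10% egg white. The 1 h and 4 h comparisons of a meal share their unfed samples. The comparisons show how each gene stood after each meal relative to unfed larvae of the same cohort.

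In mammals, bile acids that return to the liver activate the nuclear receptor Nr1h4, also called FXR. The receptor induces Nr0b2 (SHP), a nuclear receptor without a DNA binding domain that represses other receptors and, through them, the bile acid synthesis enzyme Cyp7a1. In the liver it also induces Abcb11, which pumps bile salts into bile. In the distal intestine it induces Fabp6, which binds bile acids inside enterocytes, and the hormone FGF19, which signals to the liver. Zebrafish carry both nr0b2a and nr0b2b where mammals have a single gene.

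Every fold change is a log2 value, fed against unfed, of the authors' deposited table. A gene is called where the adjusted p there is under 0.05. That table gives no value of a single sample, so the level in each pool and the overlap of groups cannot be shown. The error given as ± is an approximate 95% interval implied by the fold change and its p-value. For well expressed genes it depended on the expression level alone, so it does not carry a gene's own spread between pools. For a difference of fold changes the error is that of genes at the same expression level, and for nr0b2b, whose own p-values gave a wider one, the wider interval is added. None of these intervals is adjusted for the number of genes. Every difference between meals joins separate cohorts, so meal and cohort cannot be told apart in it. Averages are in CPM (counts scaled to the library total) over all samples, are not scaled to gene length, and are not compared between genes. In bulk tissue, fewer cells of a type and less RNA per cell cannot be told apart.

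The dissected organs were represented by their markers in the authors' deposited table. Average log2 CPM lay between 7.74 and 10.7 for 6 hepatocyte markers, between 6.81 and 11.01 for 6 enterocyte markers and between 11.4 and 13.5 for 6 exocrine pancreas markers. Markers of endocrine pancreas (3.88 to 5.48) and of bile duct cells (2.95 to 8.49) were also present, and so were 5 skeletal muscle genes (5.72 to 8.93), a tissue outside the dissected organs.

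At 1 h after high-fat feeding the authors called 3 of the 6 genes (1 higher and 2 lower), against 3.02% of all symbols. At 4 h after this meal 2 were called, both higher, against 1.12%. After low-fat feeding 1 was called higher and 1 lower at 1 h, against 3.42%, and 0 were called at 4 h, against 0.419%. At an unadjusted p under 0.05 by the authors' edgeR test, 0 of the 6 genes passed in this last comparison as well. No gene was called in every comparison, and since the genes were chosen with these calls known, nothing is read from the counts.

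**Figure D1:**
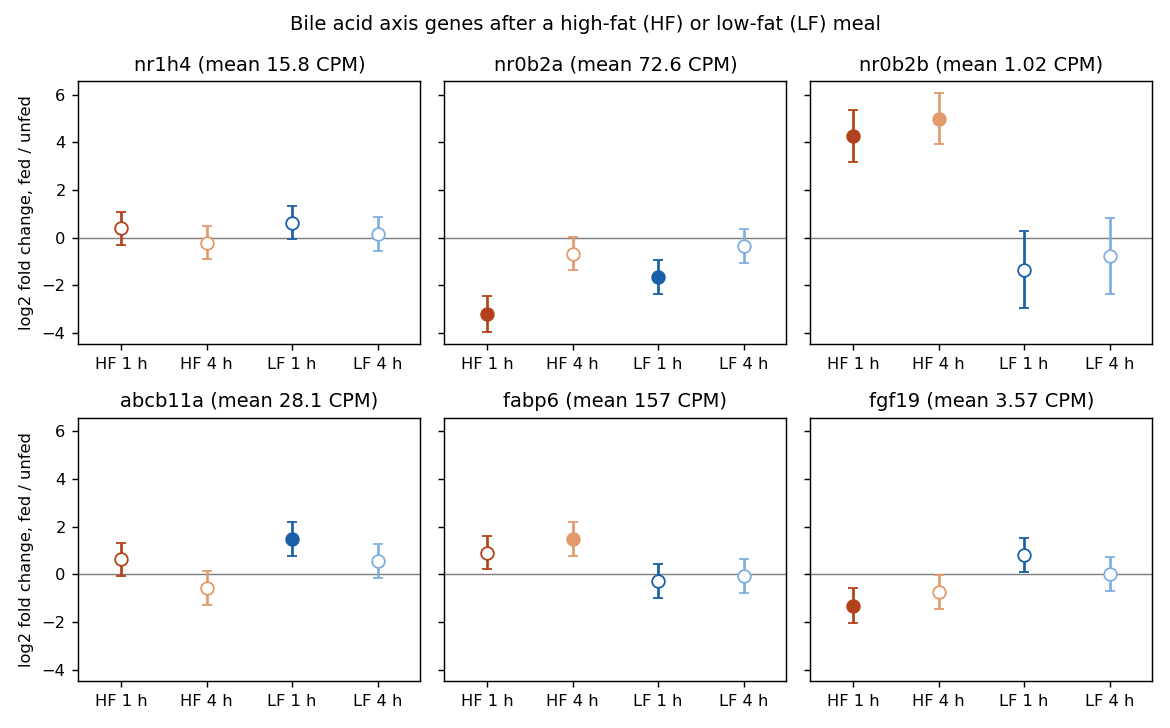
Log2 fold change of each bile acid axis gene, fed against unfed larvae of the same cohort, in the 4 comparisons (HF, high-fat; LF, low-fat). Filled points were called by the authors (adjusted p under 0.05), open points were not, and bars are approximate 95% intervals implied by the p-values; nr0b2b lay at 4.27 and 5.00 after high-fat feeding, nr0b2a at -3.20 and -0.66.

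The paralogs nr0b2a and nr0b2b changed in opposite directions 1 h after high-fat feeding. For nr0b2a the authors' deposited table gave -3.20 ± 0.76 (adjusted p = 3.9e-13), a level 9.22-fold lower than in unfed larvae and the fifth lowest of 12683 genes, those with a symbol of their own whose average log2 CPM was 0 or more. For nr0b2b it gave 4.27 ± 1.11 (adjusted p = 7.4e-11), 19.2-fold higher and the 2nd highest. The average log2 CPM of nr0b2b, 0.027, passes that filter narrowly and includes the groups where the gene is high. So nothing is read from its rank. The difference between the paralogs, nr0b2b minus nr0b2a, was 7.47 ± 1.05 on the log2 scale (± 1.34 by their own p-values).

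At 4 h after high-fat feeding nr0b2b was still higher, by 5.00 ± 1.07 (31.9-fold, adjusted p = 3.6e-16), while nr0b2a had -0.66 ± 0.70 and did not pass (adjusted p = 0.738). Between 1 h and 4 h after high-fat feeding nr0b2a moved up by 2.54 ± 0.70, most of the way back to the unfed level. The change of nr0b2b over the same hours was 0.73 ± 0.79 (± 1.09 by its own p-values), an interval that includes 0. The paralogs differed by 5.66 ± 1.05 at 4 h (± 1.28).

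After the low-fat meal no difference between the paralogs was resolved, and the intervals were wide. At 1 h nr0b2a fell by 1.65 ± 0.72 on the log2 scale in the authors' deposited table (3.14-fold lower, adjusted p = 7.6e-04), and nr0b2b had -1.35 ± 1.62 (adjusted p = 0.618), so that the difference between them was 0.30 ± 1.05 (± 1.77 by their own p-values). At 4 h the values were -0.35 ± 0.70 for nr0b2a and -0.76 ± 1.60 for nr0b2b, both with an adjusted p of 1. The average was 72.6 CPM for nr0b2a and 1.02 CPM for nr0b2b, which had the widest intervals of the 6 genes. The average of nr0b2b includes the high-fat fed groups, at 19.2-fold and 31.9-fold over unfed. So its level in unfed larvae of that cohort lies below 1.02 CPM, and its size is not given. A fold change at so low a level also depends on the small count that edgeR adds before it forms a ratio, and the size of that count is not stated in the labels.

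The high-fat minus low-fat difference of the log2 fold changes was 5.62 ± 1.11 for nr0b2b at 1 h and 5.75 ± 1.11 at 4 h (± 1.96 and ± 1.92 by its own p-values). For nr0b2a it was -1.55 ± 0.99 at 1 h and -0.31 ± 0.99 at 4 h, by intervals not adjusted for many genes. The list gene cubn had a larger meal difference at 1 h, 1.64. Its adjusted p in the approximate test described below was 0.101. So no meal difference of nr0b2a is read as resolved. At 1 h nr0b2a was called lower after both meals, and nr0b2b was called higher after high-fat feeding and had a value below 0 after low-fat feeding. These differences join separate cohorts with separate unfed larvae, so meal and cohort cannot be told apart.

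The nr0b2 pair was also set beside other genes named as a and b copies, as a description. Of 1139 such pairs with both genes at 0 log2 CPM or more, 6 had both genes called at 1 h after high-fat feeding, and in 2 of these the signs were opposite, nr0b2 and tmem86. The median absolute difference between copies was 0.36, and the next largest after nr0b2 was 3.57 (noxo1). At 4 h after high-fat feeding the nr0b2 pair again ranked 1 of 1139, followed by rhcg with 5.00. At 1 h after low-fat feeding it ranked 646. The a and b names are those of the authors' deposited table, and the pairs were set up after the values of nr0b2 were known. The gene nr0b2b passes the filter narrowly, at an average log2 CPM of 0.027 over groups that include those where it is high, so nothing is read from these ranks.

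**Figure D2:**
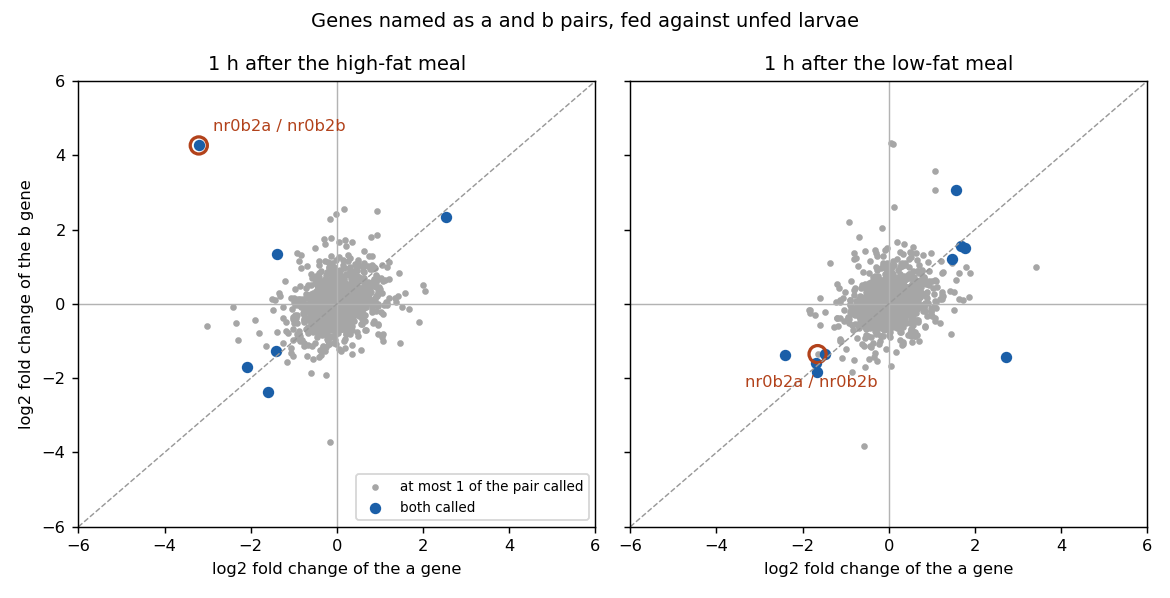
Log2 fold change of the b gene against that of the a gene for 1139 pairs, 1 h after high-fat feeding (left) and the low-fat meal (right); blue points are pairs with both genes called, the dashed line marks equal values. The circled nr0b2 pair lies far from the line at -3.20 and 4.27 after high-fat feeding and near it at -1.65 and -1.35 after low-fat feeding.

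In genome build Zv9, nr0b2a (ENSDART00000065660) spans chromosome 16 from 58399649 to 58404669, and nr0b2b (ENSDART00000011128) chromosome 19 from 30604663 to 30606958. No row with another symbol or without a symbol overlaps either gene. The 2 rows of nr0b2a itself have the same values. Neighbours were counted only where they had a symbol of their own and an average log2 CPM of 0 or more. Among 10 such genes within 250 kb of nr0b2a, 0 were called in any of the 4 comparisons. Their values at 1 h after high-fat feeding ran from -0.997 to 0.989. Among 7 such genes within 250 kb of nr0b2b, 0 were called by the authors, with values from -0.10 to 0.56 in that comparison. The nearest of these genes, si:ch73-112l20.2 at 11.1 kb from nr0b2a and nudc at 3.99 kb from nr0b2b, had -0.14 and 0.12. Over all symbols 0.419% to 3.42% were called, by comparison. So 0 of 10 or of 7 neighbours is near that share, and nothing is read from it. Windows of 2 Mb to each side of the paralogs, without the filter on the average, held 42 and 54 symbols. They shared 1 other pair of copies, tmem222a and tmem222b.

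**Figure D3:**
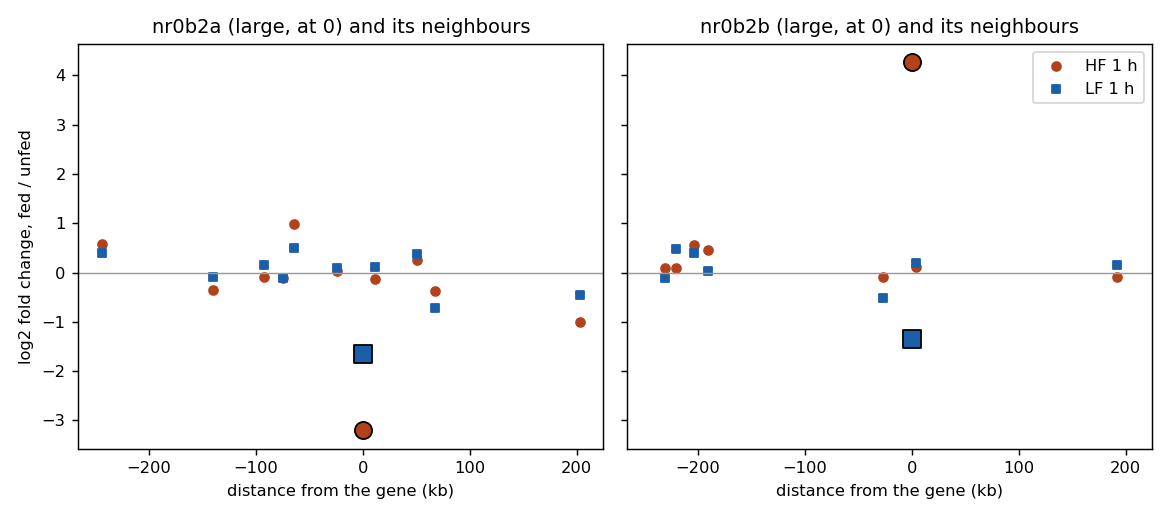
Log2 fold change 1 h after the high-fat (HF) and low-fat (LF) meal of nr0b2a and nr0b2b (large symbols at distance 0) and of the 10 and 7 genes within 250 kb, against distance in kb. Only genes with a symbol of their own and an average log2 CPM of 0 or more are drawn. The neighbours stay between -0.997 and 0.989 after high-fat feeding.

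By Euclidean distance over the 4 log2 fold changes, the genes most like nr0b2a were cyp24a1, which degrades vitamin D (distance 0.40), pdpk1a, a kinase gene of insulin signalling (0.46), the glycerol channel gene aqp7 (0.46), si:dkeyp-72g9.4 (1.04) and slc25a48 (1.08), against a median of 3.71 over all genes. At 1 h after high-fat feeding these 5 had values from -3.03 to -2.29 in the authors' deposited table. The genes most like nr0b2b were plin2, which coats lipid droplets (distance 1.44), and an apolipoprotein A-IV gene, si:dkey-7f3.15 (2.72). After them came g0s2, an inhibitor of triglyceride lipase (3.29), klf11b (3.72) and the fatty acid elongase gene elovl5 (3.95), against a median of 6.80. Another apolipoprotein A-IV gene, apoa4, had 0.59 and 0.91 after high-fat feeding and was not called. For plin2 the authors' deposited table gave 5.54 and 4.33 at 1 h and 4 h after high-fat feeding. After low-fat feeding it gave -1.34 (adjusted p = 0.0298) and -0.70. At 1 h after high-fat feeding si:dkey-7f3.15 had 3.49, against 4.27 for nr0b2b. Values there were lower for g0s2 (1.70), elovl5 (1.55) and klf11b (1.18, not called, adjusted p = 0.0593). So a distance under the median does not mean the same size of change. The 4 comparisons share unfed samples within a cohort, so a distance over them is a description.

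**Figure D4:**
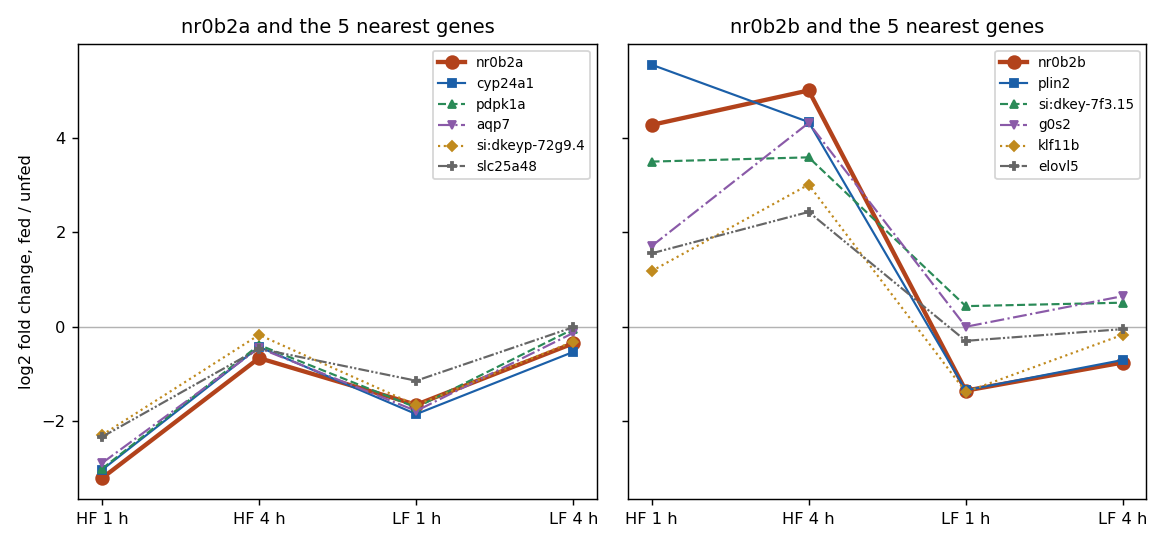
Log2 fold change in the 4 comparisons of nr0b2a (left) and nr0b2b (right) with the 5 genes at the smallest distance from each (HF, high-fat; LF, low-fat). The group around nr0b2a is lowest at 1 h after high-fat feeding, between -3.20 and -2.29, and nr0b2b and plin2 lie at 4.27 and 5.54 there. The genes g0s2, elovl5 and klf11b lie lower, at 1.70, 1.55 and 1.18.

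The receptor gene nr1h4 itself was not called in any comparison. The authors' deposited table gave 0.39 ± 0.70 and -0.20 ± 0.71 at 1 h and 4 h after high-fat feeding and 0.63 ± 0.71 and 0.16 ± 0.71 after low-fat feeding, with adjusted p of 0.917, 1, 0.556 and 1. Its average was 15.8 CPM, and its transcript ENSDART00000061794 spans chromosome 18 from 15323635 to 15346018 of Zv9. These intervals leave room for a change of up to 1.34 on the log2 scale at 1 h after low-fat feeding. Its paralog nr1h5 had values from -0.71 to 0.19 and was not called by the authors either.

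The export pump gene abcb11a (28.1 CPM, ENSDART00000139631, chromosome 9 from 49806231 to 49864438 of Zv9) was higher 1 h after low-fat feeding, by 1.47 ± 0.71 in the authors' deposited table (2.78-fold, adjusted p = 0.00398). At 4 h after that meal it had 0.55 ± 0.70, and after high-fat feeding 0.63 ± 0.70 and -0.57 ± 0.70 at 1 h and 4 h, none of them called. The difference between 4 h and 1 h was -1.20 ± 0.70 after high-fat feeding and -0.92 ± 0.70 after low-fat feeding. So its values at 4 h lay below those at 1 h after both, by intervals not adjusted for many genes. The meal difference at 1 h, -0.84 ± 1.00, had an interval that includes 0. That at 4 h, -1.12 ± 1.00, had one that does not (-2.12 to -0.13), again without adjustment. In the approximate test of list genes described below, abcc4, with a meal difference of -1.22 at 4 h, had an adjusted p of 0.764. So no meal difference of abcb11a is read as resolved. A second transcript of abcb11a gave 1.48 at 1 h after low-fat feeding. The copy abcb11b had 1.09 there and did not pass (adjusted p = 0.0737). Of 18 transport genes outside the 6 at 0 log2 CPM or more, 12 lay above 0 in that comparison. Among these were abcc4 at 1.11 (adjusted p = 0.0652) and abcb4 at 0.91, neither called. The hepatocyte markers had a median of 0.22 there, with 0 of 6 called by the authors. The part of hepatocytes in the value of abcb11a was not tested.

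The gene fabp6 (157 CPM, ENSDART00000065448, chromosome 21 from 28787115 to 28791414 of Zv9) was higher 4 h after high-fat feeding, by 1.47 ± 0.71 in the authors' deposited table (2.77-fold, adjusted p = 0.00972). At 1 h it had 0.92 ± 0.70 and did not pass (adjusted p = 0.193), and the 4 h minus 1 h difference was 0.55 ± 0.70. After the low-fat meal it had -0.27 ± 0.70 and -0.07 ± 0.70. The high-fat minus low-fat difference was 1.19 ± 0.99 at 1 h and 1.54 ± 0.99 at 4 h, by intervals not adjusted for many genes. The list gene tmigd1 had larger meal differences, 1.33 at 1 h and 1.71 at 4 h. Its adjusted p in the approximate test described below was 0.42 and 0.125. So no meal difference of fabp6 is read as resolved. Markers of enterocytes in general had medians of 0.57 and 0.53 at 1 h and 4 h after high-fat feeding. After low-fat feeding they had 0.53 and 0.26, and 0 of 6 were called by the authors in any comparison. A marker set labelled ileal-type lysosome rich enterocyte, for cells of the posterior gut, includes fabp6. It joins genes of bile acid uptake (slc10a2) and of protein uptake (cubn), and whether these mark the same cells was not tested. The 5 other genes of the set, also in the longer list below, had medians of 1.101 and 0.86 after high-fat feeding. Of these, 2 were called higher at 1 h and 1 at 4 h, against 3.02% and 1.12% of all symbols. After low-fat feeding the 5 genes had medians of 0.026 and -0.41, with 0 called, against 3.42% and 0.419%. Nothing is read from these counts. The part of either marker set in the value of fabp6 was not tested. The 5 skeletal muscle genes had medians of -0.70 and -0.95 after high-fat feeding and of 0.28 and 0.0059 after low-fat feeding. Of the 5, 1 was called lower by the authors, myhz1.2 at 4 h after high-fat feeding (-2.12, adjusted p = 1.0e-05), and their part was not tested.

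The hormone gene fgf19 (3.57 CPM, ENSDART00000082018, chromosome 7 from 54609170 to 54612729 of Zv9) was lower 1 h after high-fat feeding, at -1.31 ± 0.74 in the authors' deposited table (2.48-fold lower, adjusted p = 0.0274). At 4 h it had -0.73 ± 0.72 (adjusted p = 0.647). The sign was the other way 1 h after low-fat feeding, 0.80 ± 0.73 (adjusted p = 0.337), and at 4 h it had 0.034 ± 0.72. The high-fat minus low-fat difference was -2.11 ± 1.03 at 1 h and -0.76 ± 1.03 at 4 h. A second transcript gave -1.44 (adjusted p = 0.0131) at 1 h after high-fat feeding, and a row without a symbol at the same position (ENSDART00000131432) gave -1.39. These rows may share reads and are not separate support. So 1 h after high-fat feeding fgf19 and nr0b2a lay below the unfed level, while nr0b2b lay above it and nr1h4, abcb11a and fabp6 were not called.

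Genes of the same pathway outside the 6 were described from 5 lists with 88 further genes in the table, 74 of them at 0 log2 CPM or more. The authors called 5 higher and 2 lower at 1 h after high-fat feeding (7.95%, against 3.02% of all symbols), 3 and 0 at 4 h (3.41%, against 1.12%), 4 and 2 at 1 h after low-fat feeding (6.82%, against 3.42%) and 0 at 4 h (against 0.419%). The medians over the 74 were 0.15, 0.022, 0.068 and -0.088, against -0.012, 0.010, 0.022 and 0.020 over 12683 genes. The lists were chosen with earlier results of these data known. Genes at 0 log2 CPM or more are also more common in them than among all symbols. So nothing is read from the shares called, nor from the counts list by list below, to which the same shares of all symbols apply.

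For bile acid synthesis 40 names were listed and 24 genes were found, without cyp7b1, amacr, baat and others. Among the 24, the authors called 0 higher and 1 lower at 1 h after high-fat feeding. At 1 h after low-fat feeding they called 2 higher. Medians over the 17 at 0 log2 CPM or more were 0.28, 0.086, 0.12 and -0.011. The gene cyp7a1a stands for the first enzyme of the classic pathway, which Nr0b2 represses through other receptors in mammals. It had 0.0027 and -0.086 after high-fat feeding and 0.067 and -0.34 after low-fat feeding in the authors' deposited table, all with an adjusted p of 1 and ± 0.70 each. At 1 h after low-fat feeding cyp8b1, the sterol 12-alpha-hydroxylase gene, rose by 1.21 (adjusted p = 0.0353) and si:dkey-91i10.3, which RefSeq lists as an older name of cyp27a3, by 1.29 (adjusted p = 0.0193). The gene ch25hl1.1, related to cholesterol 25-hydroxylase at 0.993 CPM, fell by 2.47 at 1 h after high-fat feeding (adjusted p = 2.8e-05), again in the authors' deposited table.

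Among 23 transport genes outside the 6, the authors called 1 higher and 1 lower at 1 h after high-fat feeding, 1 higher at 4 h, and 0 after low-fat feeding; medians over 18 were 0.37, -0.088, 0.39 and -0.093. In the authors' deposited table abcg2b, a gene of the ABCG efflux pumps, rose by 1.72 at 1 h after high-fat feeding (adjusted p = 5.5e-04), and slc10a1, the hepatocyte bile acid uptake gene in mammals, at 0.237 CPM, fell by 1.82 (adjusted p = 0.0344). The binding protein gene fabp1b.1 rose by 1.34 at 4 h (adjusted p = 0.0278). The intestinal uptake gene slc10a2 had 1.101 and 0.69 after high-fat feeding (adjusted p = 0.0743 and 0.694). The basolateral transporter gene slc51a had 0.74 and 0.34, with 0 calls by the authors in these 2 genes. The transporter genes slc51b and abcc3, also listed, were not found among the symbols.

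Of 21 receptors and partner factors, the authors called 1 higher at 1 h after high-fat feeding and 2 at 1 h after low-fat feeding. At 4 h after either meal 0 were called. Medians were -0.27, 0.023, 0.031 and 0.028. The receptor genes gpbar1 and vdra, also listed, were not found among the symbols. In the authors' deposited table esrra, an orphan nuclear receptor of energy metabolism, rose by 1.97 and 1.67 at 1 h after high-fat and low-fat feeding (adjusted p = 5.6e-05 and 0.00102), and hnf4a, a nuclear receptor of hepatocytes and enterocytes, by 1.21 at 1 h after low-fat feeding (adjusted p = 0.034). The Nr0b2 partner nr5a2 (LRH-1) had -0.80 and -0.56 at 1 h after the meals and was not called.

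In the list of the fibroblast growth factor signal, the authors called 2 of 8 genes lower at 1 h after low-fat feeding and 0 elsewhere. Medians over 6 were -0.30, -0.20, -0.19 and -0.039. In the authors' deposited table fgf21, a fasting hormone gene at 0.925 CPM, fell by 2.49 (adjusted p = 6.4e-07) and the klotho gene kl by 1.34 (adjusted p = 0.0154), whereas fgfr4, the hepatic receptor of FGF19 in mammals, had values from -0.36 to 0.047. The related gene klb, also listed, was not found among the symbols, and kl does not stand for it.

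A list made for lysosome rich enterocytes, cells of the posterior gut that take up protein, was described beside fabp6. The list also holds fabp6 and slc10a2, genes of bile acid carriage and uptake. Whether these mark the same cells as the protein uptake genes was not tested. Of 13 others, the authors called 3 higher at 1 h and 2 at 4 h after high-fat feeding, against 3.02% and 1.12% of all symbols. After low-fat feeding 0 were called, against 3.42% and 0.419%. The list was chosen with earlier results of these data known, so nothing is read from its counts. Medians were 0.74, 0.70, 0.026 and -0.25. In the authors' deposited table cubn, a receptor of protein uptake, rose by 1.52 and 1.85 (adjusted p = 0.00384 and 2.4e-04), tmigd1 by 1.91 and 1.78 (adjusted p = 9.3e-05 and 6.3e-04) and lrp2b by 1.23 at 1 h (adjusted p = 0.0341), whereas the cathepsin gene ctsba had 0.029 and 0.21.

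**Figure D5:**
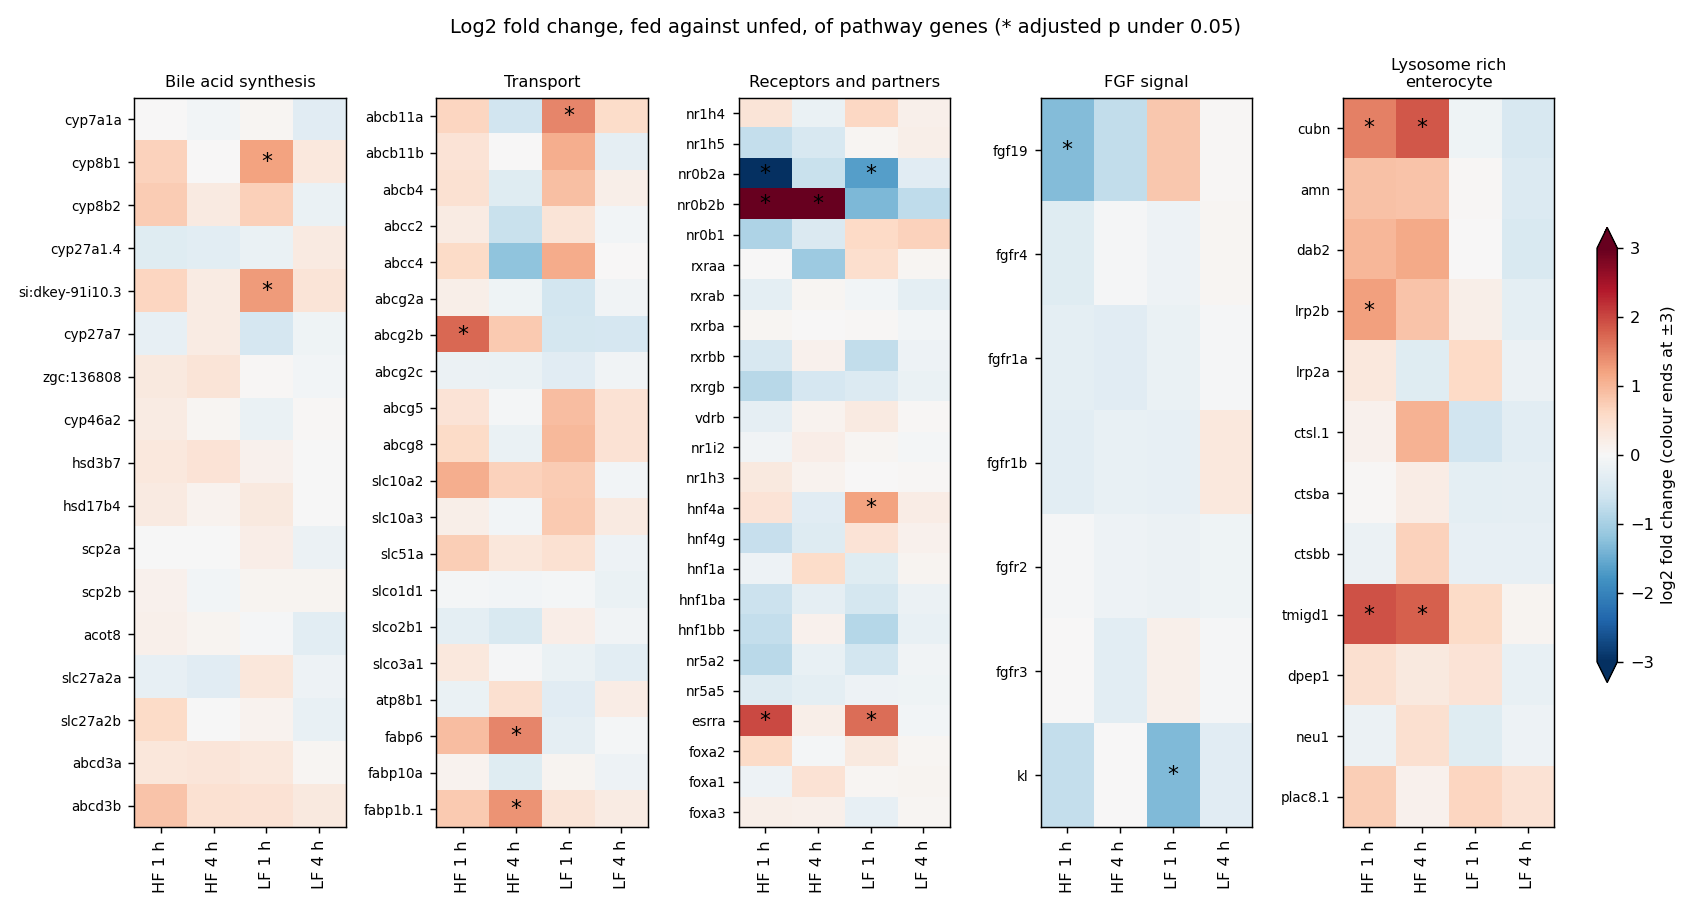
Colour gives the log2 fold change, fed against unfed, of the listed genes at 0 log2 CPM or more in the 4 comparisons (HF, high-fat; LF, low-fat), the 6 described genes included; stars mark calls of the authors (adjusted p under 0.05). The colour scale ends at ±3, which nr0b2a (-3.20) and nr0b2b (4.27 and 5.00) exceed.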

How the data were processed

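Poly(A) RNA of 18 samples in 6 groups was sequenced. TopHat2, edgeR and build Zv9 are named in the submitters' processing notes; their versions, the counter and the annotation are not stated there. The authors' deposited table holds 56754 transcripts and, for each of 4 comparisons, the log2 fold change with the p-value before and after adjustment, plus 1 average log2 CPM, per the file headers, and 0 columns of single samples, so depth is unknown and the count tests planned were replaced by the authors' values. Their adjustment is that of Benjamini and Hochberg over all rows (checked). Starts reach 0 in the table and were raised by 1.

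The approximate error is the fold change divided by the normal score that its p-value gives. For the tests of list genes it was the median of that ratio in bins of 0.5 log2 CPM. Differences between meals add both squared errors; differences between times use their mean, since the unfed samples cancel. They were tested with a normal approximation and Benjamini-Hochberg adjustment over 12683 genes with a symbol of their own and a log2 CPM of at least 0. The test was also run on simulated tables. Their errors were drawn from the same medians that the test uses, so that run says nothing about the errors of real pools. The 6 genes get no such test.

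The members, lists and tests were chosen with earlier results of these data known. Named list genes are those called by the authors in at least 1 comparison, beside a few added for their role after their values were seen (cyp7a1a, nr1h5, nr5a2, fgfr4, abcb11b, slc10a2, slc51a, ctsba). An oligosaccharyltransferase gene listed by mistake was removed. Older names were matched through RefSeq (assembly GRCz12tu, names only). Python 3.11.15, pandas 2.3.3 and scipy 1.17.1 were used.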

Additional observations from a re-analysis of the deposited data

Results flagged for a closer look

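Effects of 2 meals or of 2 times differed past an adjusted p of 0.05 for 6 of the 74 pathway genes tested outside the 6 described, by the approximate test on the authors' values with Benjamini-Hochberg adjustment over 12683 genes. This pools 4 tests. Of the 74, 1 was called between meals at 1 h and 1 at 4 h. Between times 3 were called after high-fat and 2 after low-fat feeding. The lists were chosen with earlier results known, so nothing is read from these counts. The 2 meals belong to separate cohorts with separate unfed larvae, so meal and cohort cannot be told apart in the meal differences. Between meals, abcg2b differed at 1 h by 2.24 ± 1.00 (1.72 after high-fat and -0.52 after low-fat feeding, adjusted p = 0.00241), and cubn at 4 h by 2.34 ± 1.00 (1.85 and -0.49, adjusted p = 0.00156); 0.986% and 0.528% of all genes were called in these meal differences. Between 4 h and 1 h after high-fat feeding, where 6.53% of all genes were called, abcc4, a gene of organic anion export, differed by -1.79 ± 0.70 (-1.21 and 0.58, adjusted p = 4.4e-05), esrra by -1.79 ± 0.72 (adjusted p = 8.8e-05) and the receptor partner gene rxraa by -1.10 ± 0.70 (adjusted p = 0.0359). Between 4 h and 1 h after low-fat feeding, where 2% were called, esrra differed by -1.76 ± 0.72 (adjusted p = 3.5e-04) and abcb11b by -1.36 ± 0.70 (-0.27 and 1.09, adjusted p = 0.0133).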

How the results depend on the processing

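Of 168 alternative values of the 6 genes, 167 kept their side of the threshold, and 165 kept their direction too. The exception to the first was fgf19 at 1 h after high-fat feeding (adjusted p = 0.0274), which is not called at an adjusted p under 0.01. The value of fgf19 at 4 h after low-fat feeding, 0.034 and not called, was -0.087 or -0.027 under 2 alternatives, which take its other transcript or the median of both. Only abcb11a and fgf19 have transcripts with different values, so the fold changes of the other genes of the 6 could not move. The number of the 6 genes called in each comparison stayed within 1.5 times its value under every alternative run. No alternative run could move the differences between nr0b2b and nr0b2a. The gene nr0b2b has 1 transcript, the 2 of nr0b2a have the same values, and the remaining settings change only thresholds, adjustments or filters. Counts of called pathway genes moved more. At an adjusted p under 0.01, 1 was lower at 1 h after high-fat feeding, and 1 was higher and 1 lower at 1 h after low-fat feeding; under 0.1, 2 were lower at 4 h after high-fat feeding. With the adjustment or the table limited to a log2 CPM of at least 0, 0 were lower at 1 h after high-fat feeding and 1 at 1 h after low-fat feeding, as ch25hl1.1, slc10a1 and fgf21 drop out. With adjustment over 1 row per symbol, 1 was lower at 4 h after high-fat feeding. Without the filter on low values 229 genes differed between meals at 1 h and 114 at 4 h, against 125 and 67. That setting lets more genes into the test and also refits the errors, and the part of each was not tested. No paired analysis was possible because the table has no columns of single samples; for the same reason no sample could be left out and no other scaling tried. The promoter comparison was not run, since no sequences were used here. Depth is unknown, and nr0b2b is near 1 CPM on an average that includes the high-fat fed groups where it is high.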

Other observations

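Other genes named as a and b copies also parted after a meal, in the authors' deposited table. In the phosphate transporter pair, slc34a2a had 2.72 and slc34a2b -1.43 at 1 h after low-fat feeding, both called, the 1 pair of 9 with both genes called there that had opposite signs. For tmem86a and tmem86b the authors' deposited table gave -1.39 and 1.34 at 1 h after high-fat feeding, both called. The widest pair at 1 h after low-fat feeding was serpinh1, a collagen chaperone, with an absolute difference of 4.28, and it was again the widest at 4 h, with 3.95.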
